A study of Mus musculus with 12 samples.

Results

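Fatty acid oxidation and activation was followed as a module of 41 genes, out of 35976 genes listed in the count files, in scars of mice with and without Tem1 and with and without traction. Membership was set by the known function of a gene, and the rule uses no measured value. The members were, however, chosen with earlier results of these data known. They comprise 6 genes of fatty acid activation and acyl-CoA hydrolysis, 5 of the carnitine shuttle, 9 of the mitochondrial beta-oxidation spiral, 5 auxiliary enzymes, 3 of electron transfer, 8 of peroxisomal transport and oxidation, and 5 regulators of fuel use. All 41 were found in the files under their symbols, and 40 had enough counts to be tested, the exception being Cpt1b.

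RNA-seq was performed on scars of male mice aged 8 to 12 weeks, with 3 mice in each of 4 groups. Tem1WT/WT mice carried both normal alleles, and in Tem1lacZ/lacZ mice the only exon of Tem1 had been exchanged for the lacZ reporter on both alleles, in every cell and from the germ line, after backcrossing to C57BL/6J. Every mouse, sham mice included, received a 1.5-cm wound on the back and, 6 days later, a plastic device. In the traction groups the device was lengthened by 1 mm/day up to 8 mm, in the sham groups it stayed as placed, and part of each scar gave the RNA, so that each library mixes all cells of the piece.

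Fatty acids enter metabolism as acyl-CoA thioesters, made by acyl-CoA synthetases and cleaved again by thioesterases. Long acyl chains pass into mitochondria as carnitine esters and are shortened there by repeated rounds of dehydrogenation, hydration, a second dehydrogenation and thiolysis, while very long and branched chains are first handled in peroxisomes. Electrons from the acyl-CoA dehydrogenases reach the respiratory chain through electron transfer flavoprotein. Many of these genes are targets of PPAR nuclear receptors and of the coactivator PGC-1α, and in skin they are used by sebaceous glands, adipocytes, hair follicles and the underlying muscle.

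Library totals ranged from 41536788 to 64644293 counts, and 18853 genes passed the filter on low counts. The level of Tem1, listed as Cd248, was 3883 to 16413 counts per library in Tem1WT/WT mice and 0 to 13 counts in Tem1lacZ/lacZ mice. Levels of a gene are given below as CPM, the TMM-normalized counts of edgeR scaled to a common library size, in the order of replicates 1, 2 and 3, and differences as log2 fold changes of edgeR with their standard error. The test was passed where the p of a gene, adjusted by Benjamini-Hochberg across the 18853 genes, was under 0.05. Markers of fibroblasts and of epidermal keratinocytes were high in all libraries, with summed levels of 18115 to 111543 CPM for 8 fibroblast genes and 10328 to 42061 CPM for 7 keratinocyte genes. Some libraries stood apart in other cell types. Sham replicate 1 of Tem1WT/WT mice held 16532 CPM of 11 skeletal muscle markers against 394 to 4341 CPM in the other libraries. Traction replicate 1 of Tem1WT/WT mice held 7479 CPM of 7 neutrophil markers against 53.6 to 727 CPM. It was also higher than traction replicates 2 and 3 in white adipocyte markers, at 1169 CPM against 160.2 and 317 CPM. The same held for skeletal muscle markers, at 2499.9 CPM against 394 and 468 CPM. Sham replicate 1 of Tem1lacZ/lacZ mice held 5645 CPM of 8 white adipocyte markers against 160.2 to 2962 CPM. For some of the counts, medians and members that rest on these libraries, the value without them is given too.

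**Figure D1:**
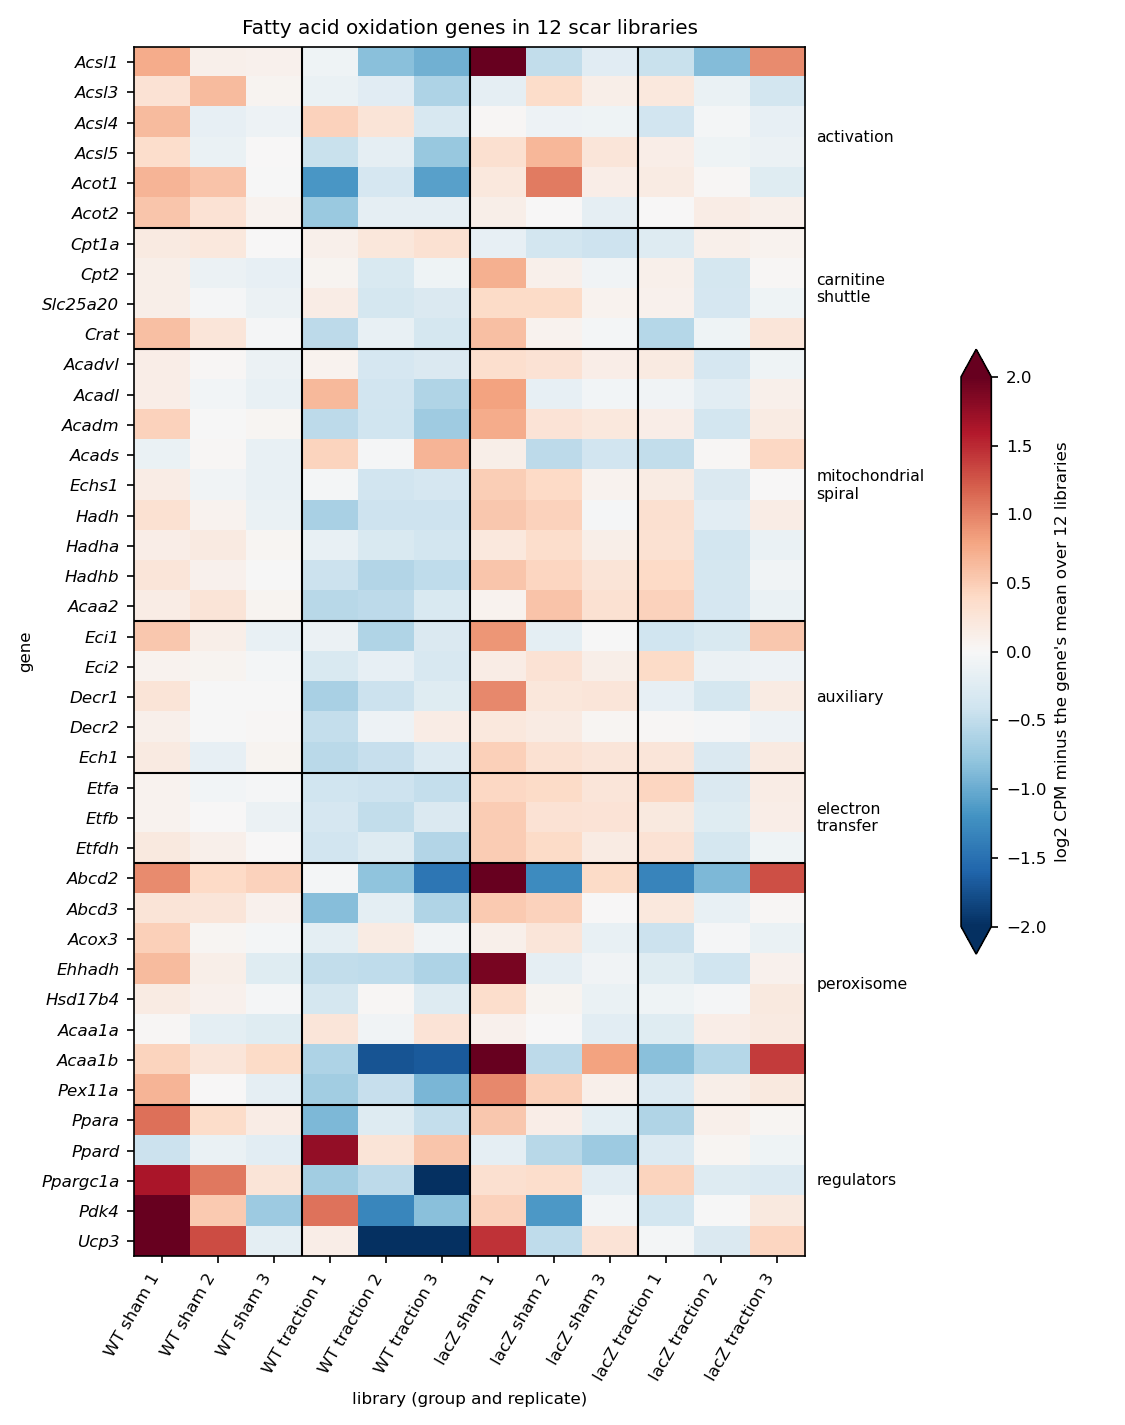
Level of each of the 40 tested members (rows, grouped by role) in each of the 12 libraries (columns), as log2 CPM minus the gene's mean over all libraries, with colors limited at 2 and −2. Most rows are blue in the 3 traction libraries of Tem1WT/WT mice, and sham replicate 1 of Tem1lacZ/lacZ mice holds the highest level of 21 members.

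The first comparison asked how the module differed between traction and sham in scars of Tem1WT/WT mice. With traction, 4 members fell, the thioesterase Acot1, the peroxisomal transporter Abcd3, the medium-chain dehydrogenase Acadm and the coactivator Ppargc1a, and 1 member rose, the nuclear receptor Ppard. Over all genes tested, 3.54% passed the test as lower and 5.61% as higher, against 10% and 2.5% of the 40 members. The estimate was below 0 for 35 of 40 members, compared with 50.6% of all genes, with a median log2 fold change of −0.52 where that of all genes was −0.01. In 24 members (60%) all 3 traction libraries were lower than all 3 sham libraries and in 1 member (2.5%) all 3 were higher, whereas over all genes tested this held for 18.0% and 17.7%. At an unadjusted p under 0.05, 19 members were lower and 1 was higher, while 14.7% and 16.7% of all genes were. The difference between fewer cells of a type and less RNA per cell cannot be told apart in RNA from whole scars.

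**Figure D2:**
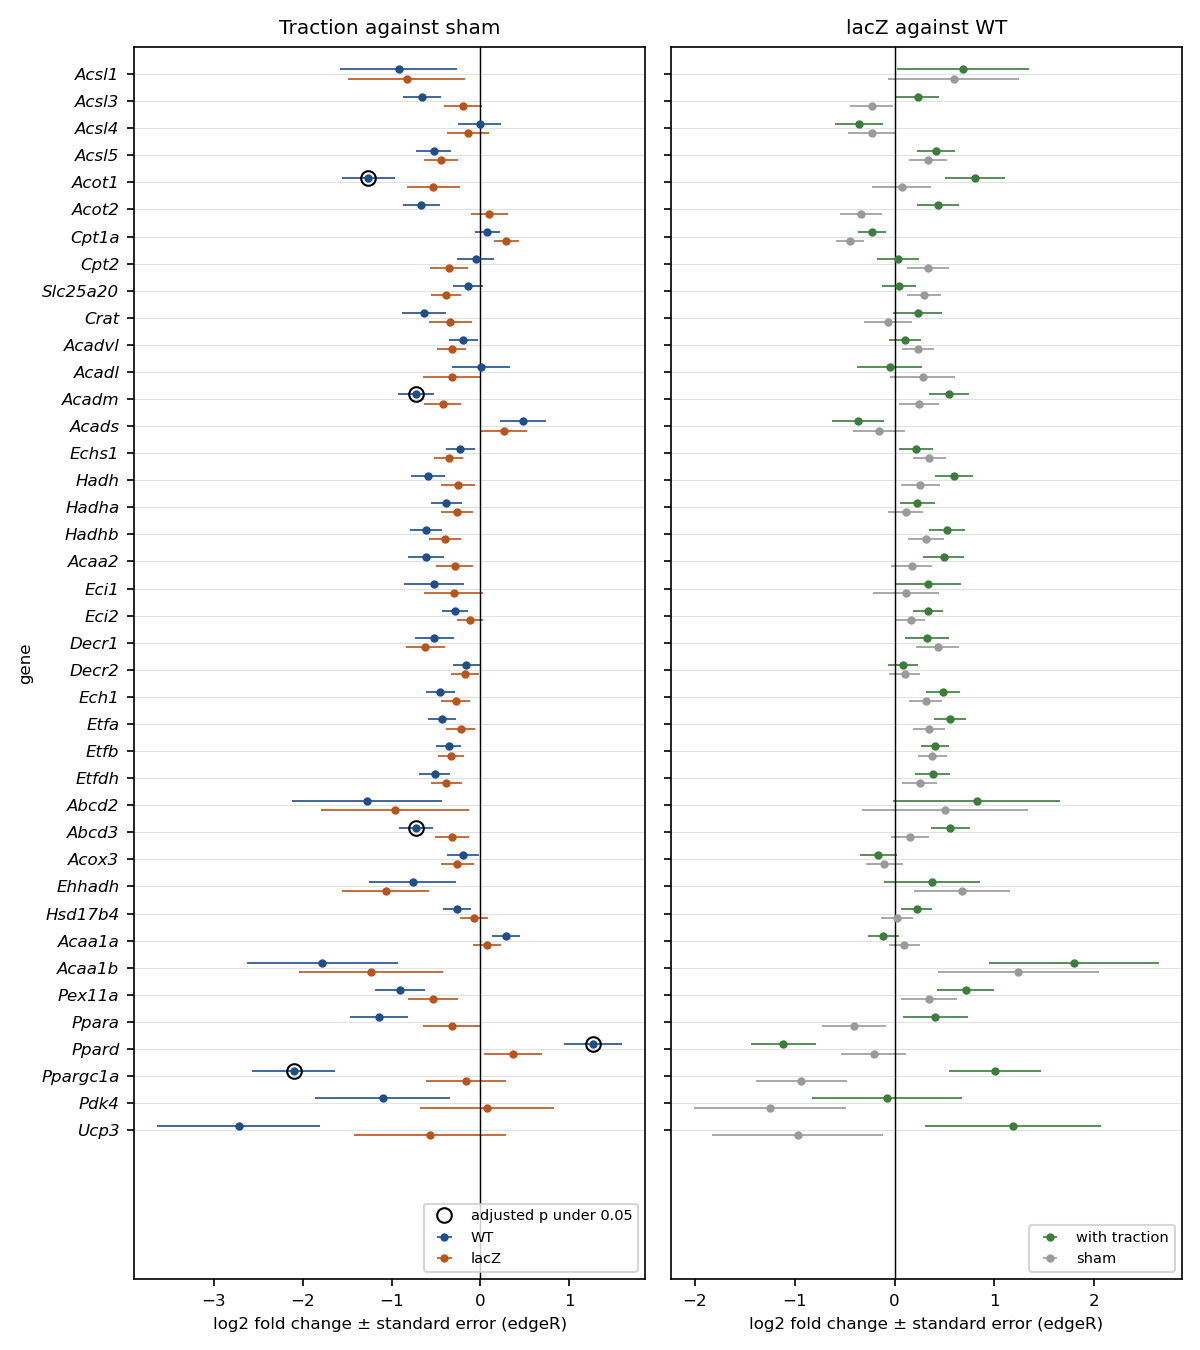
log2 fold change with its standard error from edgeR (horizontal axes) of the 40 tested members (vertical axis), for traction against sham in each genotype (left) and for Tem1lacZ/lacZ against Tem1WT/WT mice with each treatment (right). Black rings mark the 5 members past an adjusted p of 0.05, all of them for traction in Tem1WT/WT mice, where 35 of 40 estimates lie below 0.

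Among the genes that activate fatty acids or release them again, Acot1 fell. Acot1 encodes a cytosolic thioesterase that cleaves long-chain acyl-CoA, and lies at chr12:84009502-84017670 on the plus strand of GRCm38. Its level was 59.4, 55.3 and 37.0 CPM in the sham group and 16.5, 29.4 and 17.5 CPM in the traction group. All 3 traction libraries were lower than all 3 sham libraries, with a log2 fold change of −1.26 ± 0.30 (SE, adjusted p = 0.0355). The level of Acsl3, an acyl-CoA synthetase of the endoplasmic reticulum and lipid droplets at chr1:78657825-78707743, was 55.3, 70.03 and 47.1 CPM with sham and 41.3, 38.8 and 29.4 CPM with traction. These groups did not overlap either, but the log2 fold change of −0.66 ± 0.22 (SE, adjusted p = 0.0723) did not pass the test. The study names Acot1, Acsl3 and Abcd3 from these same libraries, so that their direction is not independent evidence. All 6 genes of this role had estimates below 0, from −1.26 to −0.01 with a median of −0.66, and in 5 of them the groups did not overlap. The thioesterase of mitochondria, Acot2, gave −0.66 ± 0.21 (SE, adjusted p = 0.0663), the synthetase Acsl5 gave −0.52 ± 0.19 (SE, adjusted p = 0.0960), and the synthetase Acsl1 gave −0.92 ± 0.66 (SE, adjusted p = 0.366). Acsl4, which prefers arachidonic acid, had an estimate of −0.01, the nearest to 0. Stretches of 150 bases shared between transcripts make up 9.84% of those of Acot1 with Acot2 and 2.54% with Acot3, so that reads of these paralogs may not have been told apart.

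In the carnitine shuttle no gene passed, and the median lay nearest to 0 of all roles. Cpt1a, which makes acylcarnitine at the outer membrane and sets the rate of entry into mitochondria, was at 172, 176 and 152 CPM with sham and 163, 178 and 187 CPM with traction. The groups overlapped, with a log2 fold change of 0.08 ± 0.14 (SE, adjusted p = 0.746), and upper quartile normalization turned the estimate to −0.03. Estimates of the 4 tested genes ran from −0.63 to 0.08 with a median of −0.10. The lowest was that of Crat, the carnitine acetyltransferase (−0.63, adjusted p = 0.106), and Cpt2 and the translocase Slc25a20 had estimates of −0.06 and −0.14. Cpt1b, the muscle form of the enzyme, had 0 to 6 counts per library and was not tested. It had 6, 4 and 4 counts in the sham and 0, 2 and 1 in the traction group of Tem1WT/WT mice, and 1, 1 and 3 and 1, 1 and 0 counts in the corresponding groups of Tem1lacZ/lacZ mice. These counts are not a usable level. The RefSeq transcript Gm44502, listed in the files with 0 counts in every library, spans chr15:89416405-89429927 and covers all of Cpt1b, and 89.1% of the 150-base stretches of Cpt1b also occur in it. The gene Chkb, inside the same span, had 0 to 2 counts per library, and the part of this overlap in the counts was not tested.

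In the mitochondrial spiral, the dehydrogenase for medium chains fell. Acadm, at chr3:153922353-153944643 on the minus strand, was at 135, 97.8 and 101 CPM with sham and 68.1, 74.2 and 59.6 CPM with traction. The groups did not overlap, and the log2 fold change was −0.72 ± 0.20 (SE, adjusted p = 0.0496), close to the threshold. Hadha, the subunit of the trifunctional protein that carries hydratase and dehydrogenase activity, was at 344, 356 and 323 CPM with sham and 285, 255 and 245 CPM with traction. Its groups did not overlap, yet its log2 fold change of −0.38 ± 0.18 (SE, adjusted p = 0.163) did not pass. The partner subunit Hadhb gave −0.61 ± 0.18 (SE, adjusted p = 0.0563), the thiolase Acaa2 gave −0.61 ± 0.21 (SE, adjusted p = 0.0762) and the hydroxyacyl-CoA dehydrogenase Hadh gave −0.59 ± 0.19 (SE, adjusted p = 0.0713). Groups did not overlap in 5 of the 9 genes of the spiral, all with lower levels under traction. The estimates of the other acyl-CoA dehydrogenases lay nearer to 0. The very long-chain enzyme Acadvl had an estimate of −0.19, the long-chain enzyme Acadl of 0.01 and the short-chain enzyme Acads of 0.48, and the hydratase Echs1 lay at −0.23. None of these 4 passed the test. The level of Acadl was 143, 70.4 and 60.6 CPM in the traction libraries, so that replicate 1, the library high in neutrophil markers, lay above and the others below the sham values of 101, 88.4 and 82.8 CPM.

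The auxiliary enzymes that prepare unsaturated chains, Eci1, Eci2, Decr1, Decr2 and Ech1, had estimates from −0.52 to −0.16 with a median of −0.45. Groups did not overlap in 3 of the 5, and none passed the test. The electron transfer genes Etfa and Etfb, the subunits of the flavoprotein, and Etfdh, its dehydrogenase, did not pass either. Their estimates were −0.43, −0.36 and −0.51, with adjusted p of 0.0994, 0.116 and 0.0783. Etfa was at 104, 95.8 and 97.6 CPM with sham and 75.2, 74.1 and 70.8 CPM with traction. In all 3 genes the traction libraries lay below the sham libraries without overlap.

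Of the peroxisomal genes, Abcd3 fell. Abcd3, a transporter of fatty acids and their CoA esters into the organelle, lies at chr3:121758904-121815302 on the minus strand. Its level was 153, 150.1 and 135 CPM with sham and 70.5, 111 and 84.1 CPM with traction, without overlap. The log2 fold change was −0.72 ± 0.19 (SE, adjusted p = 0.0435). Ehhadh, the bifunctional enzyme induced by PPARα, was at 14.0, 9.81 and 7.58 CPM with sham and 6.35, 6.29 and 5.83 CPM with traction. Again the groups did not overlap, but the estimate of −0.76 ± 0.48 (SE, adjusted p = 0.302) did not pass, and it was −0.50 without sham replicate 1. The lowest estimates were those of the thiolase Acaa1b (−1.78), the transporter Abcd2 (−1.28) and the membrane protein Pex11a (−0.90), with adjusted p of 0.178, 0.323 and 0.0633. The oxidase Acox3 and the bifunctional enzyme Hsd17b4 had estimates of −0.20 and −0.27. The thiolase Acaa1a, which shares 12.7% of its 150-base stretches with Acaa1b, was the 1 gene of the 8 with an estimate above 0 (0.28).

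Of the 5 regulators, Ppargc1a fell and Ppard rose, while Ppara, Pdk4 and Ucp3 did not pass. Ppargc1a, which encodes the coactivator PGC-1α, was at 11.0, 7.34 and 4.21 CPM with sham and 2.12, 2.41 and 0.740 CPM with traction. The groups did not overlap, and the log2 fold change of −2.10 ± 0.47 (SE, adjusted p = 0.0329) was the lowest of the members that passed. Its highest level was in sham replicate 1, and the estimate lay between −2.38 and −1.73 when any library was left out. Ppard, the PPAR expressed in most tissues, was at 31.8, 38.9 and 36.9 CPM with sham and 145, 51.1 and 63.1 CPM with traction. All 3 traction libraries were higher than all 3 sham libraries, with a log2 fold change of 1.27 ± 0.33 (SE, adjusted p = 0.0412). The highest value was in traction replicate 1, the library with the highest neutrophil markers, and without this library the estimate was 0.65 (adjusted p = 0.0747). Ppara, the PPAR that directs fatty acid oxidation in liver, was at 11.7, 7.07 and 5.99 CPM with sham and 2.86, 4.53 and 3.88 CPM with traction. Its groups did not overlap, and its estimate of −1.14 ± 0.33 (SE, adjusted p = 0.0516) missed the threshold. Sham replicate 1 held its highest level as well, and its estimate lay between −1.31 and −0.81 when any library was left out. Pdk4, the kinase that shuts off pyruvate dehydrogenase when fat is burned, was at 85.2, 26.9 and 11.2 CPM with sham and 39.7, 7.44 and 10.4 CPM with traction. Ucp3, a mitochondrial carrier of muscle, was at 15.3, 6.73 and 2.31 CPM with sham and 2.93, 0.486 and 0.288 CPM with traction. Groups of both genes overlapped, with log2 fold changes of −1.10 ± 0.76 (SE, adjusted p = 0.343) for Pdk4 and −2.72 ± 0.91 (SE, adjusted p = 0.0763) for Ucp3. Both were highest in sham replicate 1, the library high in muscle markers. Without this library the estimate for Pdk4 was 0.0002 and, without traction replicate 1, −2.22. The estimate for Ucp3 without sham replicate 1 was −1.89, and without traction replicate 1 it passed, at −4.40 (adjusted p = 0.0448).

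**Figure D3:**
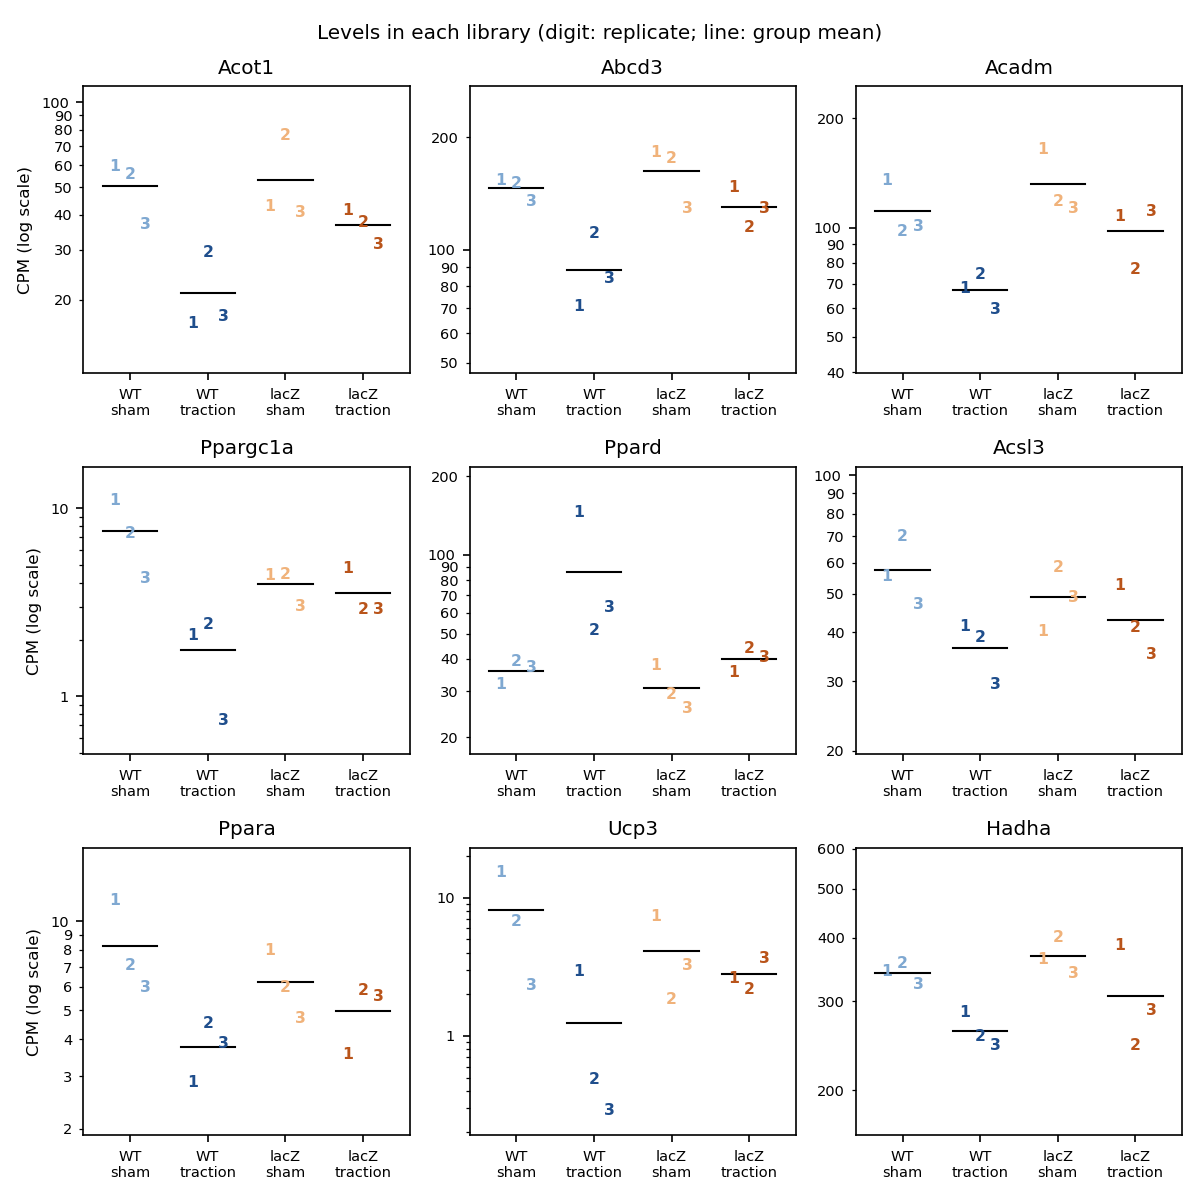
CPM on log scales (vertical axes) of 9 members in each library of the 4 groups (horizontal axes), where digits are replicate numbers and lines are group means. Traction libraries of Tem1WT/WT mice lie below the sham libraries without overlap in Acot1, Abcd3, Acadm, Ppargc1a, Acsl3, Ppara and Hadha, above them in Ppard, and overlap with them in Ucp3.

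The count of 5 members depended on the fit. With DESeq2 10 members passed (18.5% of all genes), with limma-voom 0 (3.97%), and with only the 6 libraries compared 0 (0%). Leaving out sham replicate 1 or 2 of Tem1WT/WT mice ended the calls of all genes, and leaving out sham replicate 3 of Tem1lacZ/lacZ mice or traction replicate 3 of Tem1WT/WT mice ended those of all members. The median over the members lay between −0.56 and −0.39 when any library was left out. Traction libraries were lower without overlap in 24 members without sham replicate 1 (21.8% of all genes), in 31 without traction replicate 1 (24.9%) and in 31 without both (29.6%).

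The windows around the RefSeq start sites of Acot1, Abcd3, Acadm, Ppargc1a and Ppard are shown because these genes passed the test. Each runs from 250 bases before to 50 bases after the start, 5′ to 3′ on the strand of the gene, in GRCm38.p6. Capitals mark the nuclear receptor core motif AGGTCA, the GC box GGGCGG and the CCAAT box CCAAT, on either strand. For Abcd3, which has more than 1 window, that of the upstream start is given, and the start of Ppargc1a lies inside the gene.
Acot1, chr12:84009252-84009551, plus strand: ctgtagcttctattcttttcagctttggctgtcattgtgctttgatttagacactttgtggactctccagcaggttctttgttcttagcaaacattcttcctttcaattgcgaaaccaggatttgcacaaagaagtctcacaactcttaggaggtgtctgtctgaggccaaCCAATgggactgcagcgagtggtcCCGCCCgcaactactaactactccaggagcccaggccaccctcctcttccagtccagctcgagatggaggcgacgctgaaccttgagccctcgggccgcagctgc
Abcd3, chr3:121815253-121815552, minus strand: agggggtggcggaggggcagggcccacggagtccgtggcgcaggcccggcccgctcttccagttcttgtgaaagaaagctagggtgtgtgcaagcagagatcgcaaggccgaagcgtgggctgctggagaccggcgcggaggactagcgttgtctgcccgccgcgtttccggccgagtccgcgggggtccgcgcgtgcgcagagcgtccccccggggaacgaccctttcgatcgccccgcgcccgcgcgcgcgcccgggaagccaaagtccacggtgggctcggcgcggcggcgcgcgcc
Acadm, chr3:153944594-153944893, minus strand: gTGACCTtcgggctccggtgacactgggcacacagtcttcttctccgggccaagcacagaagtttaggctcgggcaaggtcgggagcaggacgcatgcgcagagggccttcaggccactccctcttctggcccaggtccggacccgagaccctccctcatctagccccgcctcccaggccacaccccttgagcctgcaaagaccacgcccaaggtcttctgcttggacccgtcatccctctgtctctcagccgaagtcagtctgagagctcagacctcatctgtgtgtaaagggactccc
Ppargc1a, chr5:51567676-51567975, minus strand: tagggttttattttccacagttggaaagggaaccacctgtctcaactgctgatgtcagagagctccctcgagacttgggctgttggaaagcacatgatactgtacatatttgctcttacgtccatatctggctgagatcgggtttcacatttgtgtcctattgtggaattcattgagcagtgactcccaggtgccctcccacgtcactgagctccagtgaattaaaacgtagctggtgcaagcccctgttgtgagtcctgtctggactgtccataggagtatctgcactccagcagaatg
Ppard, chr17:28232504-28232803, plus strand: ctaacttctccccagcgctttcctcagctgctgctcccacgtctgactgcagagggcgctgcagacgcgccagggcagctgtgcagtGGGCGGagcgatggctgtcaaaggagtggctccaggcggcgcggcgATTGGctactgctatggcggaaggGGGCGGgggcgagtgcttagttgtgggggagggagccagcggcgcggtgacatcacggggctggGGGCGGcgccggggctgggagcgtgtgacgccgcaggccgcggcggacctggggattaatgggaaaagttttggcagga

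Acot1 held a CCAAT box and a GC box, Ppard 3 GC boxes and a CCAAT box, and Acadm an AGGTCA on the reverse strand near the far end of the window. The windows of Abcd3 and Ppargc1a held none of the 3 motifs. In all, 35 members had 37 windows in the RefSeq table. AGGTCA occurred in 5 of them (13.5%), those of Acadm, Acadvl, Cpt1a, Echs1 and Ucp3, and in 16.3% of the 32851 windows of all genes. The PPAR element AGGTCANAGGTCA and the element TCAAGGTCA of estrogen-related receptors, which both contain the core motif, were in 0 of the 37 windows and in 0.0396% and 0.423% of all windows. GC boxes were in 25 windows of members (67.6%, against 35.7% of all) and CCAAT boxes in 16 (43.2%, against 37.4%). The median GC content was 60.7% in windows of members and 52.7% in all windows. A match of letters is not a bound site, and elements farther from the start were not searched.

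The second comparison asked the same of Tem1lacZ/lacZ mice. No member passed the test, and neither did any of the 18853 genes (0% in edgeR), although 1530 genes had an unadjusted p under 0.05, and DESeq2 and limma-voom called 18 and 435 genes, with 0 members among them. The estimate was below 0 for 34 of 40 members, with a median log2 fold change of −0.32 (−0.01 over all genes) and a range from −1.23 to 0.36. Traction libraries were lower without overlap in 6 members (15.0%) and higher in 0, against 6.16% and 6.77% of all genes tested. Without sham replicate 1, the library high in adipocyte markers, the median was −0.10, and 6 members were lower and 3 higher without overlap, against 10.7% and 13.0% of all genes. At an unadjusted p under 0.05, 4 members (10%) were lower and 0 higher, against 2.46% and 5.66% of all genes.

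The 3 members with the smallest p were Decr1, Etfb and Acsl5. Decr1, the mitochondrial dienoyl-CoA reductase, was at 87.8, 52.5 and 53.2 CPM with sham and 40.2, 35.2 and 50.3 CPM with traction. Etfb was at 90.0, 77.5 and 76.7 CPM with sham and 72.1, 53.2 and 68.9 CPM with traction. Acsl5 was at 236, 299 and 222 CPM with sham and 205, 177 and 173 CPM with traction. In all 3 genes the traction libraries lay below the sham libraries, and the log2 fold changes were −0.62 ± 0.22 (SE, adjusted p = 0.598) for Decr1, −0.33 ± 0.14 (SE, adjusted p = 0.601) for Etfb and −0.45 ± 0.19 (SE, adjusted p = 0.601) for Acsl5. Without sham replicate 1 the estimate was −0.30 for Decr1 and −0.21 for Etfb.

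Of the members that passed in Tem1WT/WT mice, Acot1 was at 42.7, 76.2 and 40.6 CPM with sham and 41.5, 37.7 and 31.4 CPM with traction in Tem1lacZ/lacZ mice. Abcd3 was at 182, 175 and 129 CPM with sham and 147, 115 and 129 CPM with traction. Acadm was at 164, 118 and 113 CPM with sham and 107, 76.5 and 110.4 CPM with traction. Of these, only Acadm showed no overlap between the groups. Ppargc1a was at 4.38, 4.46 and 2.99 CPM with sham and 4.81, 2.90 and 2.88 CPM with traction. Ppard was at 37.9, 29.3 and 25.9 CPM with sham and 35.4, 43.9 and 40.4 CPM with traction. Both overlapped, and the log2 fold changes were −0.53 for Acot1, −0.32 for Abcd3, −0.43 for Acadm, −0.16 for Ppargc1a and 0.36 for Ppard, with adjusted p from 0.622 to 0.938 in edgeR.

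The other members with a level in every library lay as follows in Tem1lacZ/lacZ mice. Acsl3 was at 40.1, 58.3 and 49.0 CPM with sham and 52.4, 41.1 and 35.1 CPM with traction. Ppara was at 7.97, 5.98 and 4.70 and 3.55, 5.83 and 5.56 CPM, and Hadha at 363, 402 and 339.7 and 387, 245 and 288 CPM. All 3 overlapped between the groups. Pdk4 was at 25.6, 8.30 and 17.9 and 14.4, 18.6 and 21.4 CPM, and Ucp3 at 7.35, 1.83 and 3.23 and 2.59, 2.15 and 3.62 CPM. Ehhadh was at 33.8, 7.90 and 8.60 and 7.61, 6.83 and 9.54 CPM, and its sham replicate 1 stood apart from every other library of the study. Cpt1a was at 135, 118 and 114 CPM with sham and 128, 163 and 159.6 CPM with traction, with a log2 fold change of 0.29 (adjusted p = 0.622 in edgeR).

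Whether the response to traction differed between the genotypes was tested as an interaction, the response in Tem1lacZ/lacZ minus that in Tem1WT/WT mice. No member and no gene passed (0% of genes in edgeR, smallest adjusted p = 0.548), while DESeq2 called 64 genes and limma-voom 0, with 0 members in either. At an unadjusted p under 0.05 stood 2 of 40 members (5.0%), a smaller share than the 8.91% of all genes. They were Ppargc1a, with a difference of 1.94 ± 0.65 (SE, adjusted p = 0.548), and Acot2, with 0.77 ± 0.30 (SE, adjusted p = 0.548). The next smallest p was that of Ppard, with −0.90 ± 0.46 (SE, adjusted p = 0.575), which was −0.26 without traction replicate 1 of Tem1WT/WT mice. Acot2 was at 10.4, 8.62 and 7.40 CPM with sham and 4.16, 6.25 and 6.25 CPM with traction in Tem1WT/WT mice, and at 7.69, 7.07 and 6.20 and 7.07, 7.86 and 7.54 CPM in Tem1lacZ/lacZ mice. Its groups did not overlap in Tem1WT/WT mice and overlapped in Tem1lacZ/lacZ mice. The difference was above 0 in 27 of 40 members, with a median of 0.18 (−0.002 over all genes). The median was 0.09 without sham replicate 1 of Tem1WT/WT mice, 0.31 without sham replicate 1 of Tem1lacZ/lacZ mice, and between these values when any other library was left out. It was 0.09, 0.11 and 0.27 without traction replicates 3, 1 and 2 of Tem1lacZ/lacZ mice, and 0.12 without sham replicate 3.

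The third comparison set Tem1lacZ/lacZ against Tem1WT/WT mice with traction. It shares the 3 traction libraries of Tem1WT/WT mice with the first comparison, so that opposite signs in both follow in part from these libraries. No member passed, and 0.106% of all genes did in edgeR. At an unadjusted p under 0.05, 11 members were higher and 1 was lower in Tem1lacZ/lacZ mice, against 11.1% and 15.1% of all genes, and limma-voom called 0 members. DESeq2 called 2 members (5%), Etfa and Ppard, and 11.8% of all genes it tested. The estimate was above 0 for 32 of 40 members, with a median log2 fold change of 0.36 (0.01 over all genes). This median lay between 0.25 and 0.44 when any library was left out. Libraries of Tem1lacZ/lacZ mice were higher without overlap in 13 members (32.5%) and lower in 2 (5.0%), whereas this held for 12.9% and 13.7% of all genes tested. Without traction replicate 1 of Tem1WT/WT mice they were higher in 18 members (45.0%, against 18.4% of all genes).

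The smallest p was that of Etfa, at 75.2, 74.1 and 70.8 CPM in Tem1WT/WT and 133, 81.4 and 109 CPM in Tem1lacZ/lacZ mice. Ppard was at 145, 51.1 and 63.1 CPM in Tem1WT/WT and 35.4, 43.9 and 40.4 CPM in Tem1lacZ/lacZ mice. Hadh was at 59.5, 69.7 and 69.8 CPM in Tem1WT/WT and 116, 80.8 and 103 CPM in Tem1lacZ/lacZ mice. None of the 3 overlapped between the genotypes, Etfa and Hadh being higher and Ppard lower in Tem1lacZ/lacZ mice. Their log2 fold changes were 0.56 ± 0.16 (SE, adjusted p = 0.0969) for Etfa, −1.11 ± 0.33 (SE, adjusted p = 0.0971) for Ppard and 0.59 ± 0.19 (SE, adjusted p = 0.108) for Hadh. Without traction replicate 1 of Tem1WT/WT mice the estimate for Ppard was −0.48 (adjusted p = 0.215), and without replicate 2 it passed, at −1.38 (adjusted p = 0.0281). In the fit without replicate 2, 7.32% of all genes passed. Acot1, Abcd3, Acadm and Ppargc1a were also higher in all 3 libraries of Tem1lacZ/lacZ mice, with log2 fold changes of 0.80, 0.56, 0.54 and 1.01 and adjusted p from 0.1195 to 0.194. Markers of the hair shaft and root sheath were also higher in these libraries, at 8036 to 13928 CPM against 4224 to 7691 CPM, and those of sebocytes, at 1215 to 1606 CPM against 472 to 1226 CPM, overlapped in 1 library of each genotype. White adipocyte markers, at 214 to 2962 CPM against 160.2 to 1169 CPM, overlapped, with all 8 estimates above 0. Skeletal muscle markers, at 1777 to 2969.6 CPM against 394 to 2499.9 CPM, overlapped, with all 11 estimates above 0. Keratinocyte markers, at 14186 to 42061 CPM against 13626 to 20209 CPM, overlapped too, with all 7 estimates above 0. Endothelial markers were lower in all these libraries, at 377 to 615 CPM against 801 to 892 CPM, while neutrophil and fibroblast markers overlapped. None of these markers passed in edgeR. At an unadjusted p under 0.05, 2 of 8 hair, 5 of 7 sebocyte, 1 of 11 muscle, 1 of 7 keratinocyte and 0 of 8 adipocyte markers were higher. At the same threshold 5 of 7 endothelial, 5 of 6 neutrophil and 5 of 8 fibroblast markers were lower. The part of all these markers in the result was not tested. By role, the median estimate of the members was 0.42 in activation, 0.04 in the carnitine shuttle, 0.23 in the spiral, 0.33 in the auxiliary enzymes, 0.40 in electron transfer, 0.47 in the peroxisome and 0.41 in the regulators.

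**Figure D4:**
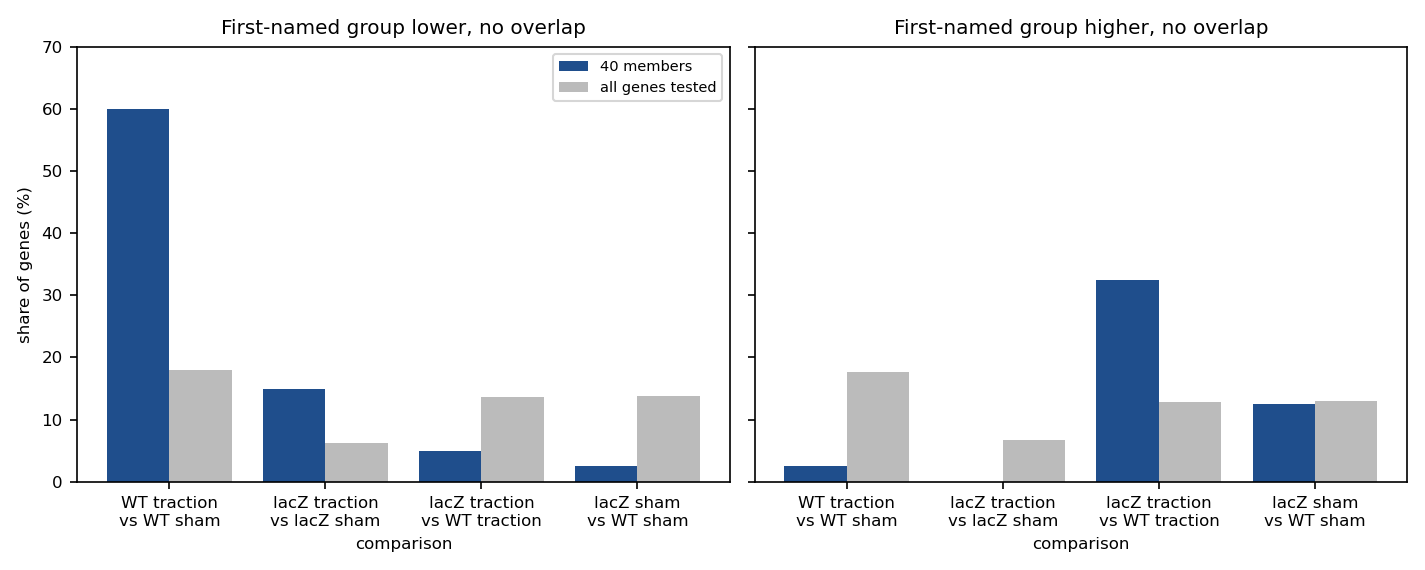
Share in percent (vertical axes) of the 40 tested members (blue) and of all genes tested (gray) in which every library of the first-named group was lower (left) or higher (right) than every library of the second, for the 4 comparisons (horizontal axes). Members stand above all genes in the lower direction for traction in Tem1WT/WT mice (60% against 18.0%) and in Tem1lacZ/lacZ mice (15.0% against 6.16%). In the higher direction they do so for Tem1lacZ/lacZ against Tem1WT/WT mice with traction (32.5% against 12.9%).

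In the sham groups the genotypes were compared without traction. No member passed and 0.0106% of all genes did in edgeR, and DESeq2 and limma-voom called 0 members. At an unadjusted p under 0.05, 1 member (2.5%) was higher and 1 (2.5%) was lower in Tem1lacZ/lacZ mice, against 5.03% and 6.62% of all genes. The estimate was above 0 for 28 of 40 members, with a median log2 fold change of 0.17 (−0.01 over all genes). Without sham replicate 1 of Tem1lacZ/lacZ mice the median was 0.02, without sham replicate 3 it was 0.26 and without sham replicate 1 of Tem1WT/WT mice 0.25. Libraries of Tem1lacZ/lacZ mice were higher without overlap in 5 members (12.5%) and lower in 1 (2.5%), against 13.0% and 13.8% of all genes tested. Single libraries decided this count. Without sham replicate 1 of Tem1WT/WT mice 15 members were higher (37.5%, against 19.0% of all genes), and without sham replicate 1 of Tem1lacZ/lacZ mice 6 were higher and 7 lower, against 19.7% and 20.6%.

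Cpt1a had the smallest p, at 172, 176 and 152 CPM in Tem1WT/WT and 135, 118 and 114 CPM in Tem1lacZ/lacZ mice. Etfb was at 66.5, 63.3 and 58.0 CPM in Tem1WT/WT and 90.0, 77.5 and 76.7 CPM in Tem1lacZ/lacZ mice, and Etfa at 104, 95.8 and 97.6 and 132, 129 and 117 CPM. The genotypes did not overlap in any of the 3, Cpt1a being lower and both flavoprotein subunits higher in Tem1lacZ/lacZ mice. The log2 fold changes were −0.44 ± 0.14 (SE, adjusted p = 0.409) for Cpt1a, 0.38 ± 0.14 (SE, adjusted p = 0.409) for Etfb and 0.35 ± 0.16 (SE, adjusted p = 0.435) for Etfa. All 5 regulators had estimates below 0, from −1.25 to −0.21 with a median of −0.93, while all 5 auxiliary enzymes and all 3 electron transfer genes had estimates above 0. Of the regulators, 0 had an unadjusted p under 0.05, and 0 were without overlap. Sham replicate 1 of Tem1WT/WT mice, the library high in muscle markers, held the highest level of Ppara, Ppargc1a, Pdk4 and Ucp3. All 11 skeletal muscle markers also had estimates below 0 (median −1.54, 1 at an unadjusted p under 0.05), and their part was not tested.

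Levels of the members were compared with each other per length, as CPM per kilobase of the longest coding transcript in GENCODE vM21, over the sham group of Tem1WT/WT mice. The most abundant were the auxiliary isomerase Ech1 (104 CPM per kilobase), the trifunctional subunit Hadha (84.9), the thiolase Acaa2 (82.2) and the flavoprotein subunits Etfa (71.1) and Etfb (70.1). Acadm stood at 54.3, Abcd3 at 41.8 and Acot1 at 22.3 CPM per kilobase. Regulators and inducible enzymes were low, with Ppard at 11.0, Ehhadh at 3.51, Ucp3 at 3.31, Ppara at 2.42, Ppargc1a at 1.17 and Acaa1b at 1.09 CPM per kilobase. With traction in the same genotype Ppard stood at 26.3 and Ppara at 1.10 CPM per kilobase. The order depends on the transcript taken for each gene.

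The highest level of a member was often found in a single library. Sham replicate 1 of Tem1lacZ/lacZ mice held the highest level of 21 of 40 members (52.5%, against 7.91% of all genes), and sham replicate 1 of Tem1WT/WT mice that of 8 (20%, against 11.2%). The traction libraries of Tem1WT/WT mice held the lowest level of 10, 7 and 13 members (25%, 17.5% and 32.5%) in replicates 1, 2 and 3, against 18.9%, 6.75% and 16.3% of all genes. The lowest levels of the other 10 members lay in Tem1lacZ/lacZ libraries. Sham replicate 1 of Tem1lacZ/lacZ mice was also the highest in adipocyte markers. For this library, with members chosen after their values were seen, Abcd2 was at 139, 11.96 and 37.4 CPM and Acsl1 at 605, 104 and 124 CPM in the 3 sham libraries of Tem1lacZ/lacZ mice. In the traction libraries of this genotype Abcd2 was at 11.4, 15.2 and 70.01 CPM and Acsl1 at 107, 79.5 and 281 CPM, where the summed adipocyte markers were 286, 214 and 2962 CPM. Both genes were high in those libraries of Tem1lacZ/lacZ mice in which the adipocyte markers were high. In Tem1WT/WT mice Abcd2 was at 55.3, 37.7 and 39.5 CPM with sham and 27.9, 16.3 and 10.5 CPM with traction, where the adipocyte markers were 1441, 1013 and 1196 and 1169, 160.2 and 317 CPM.

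**Figure D5:**
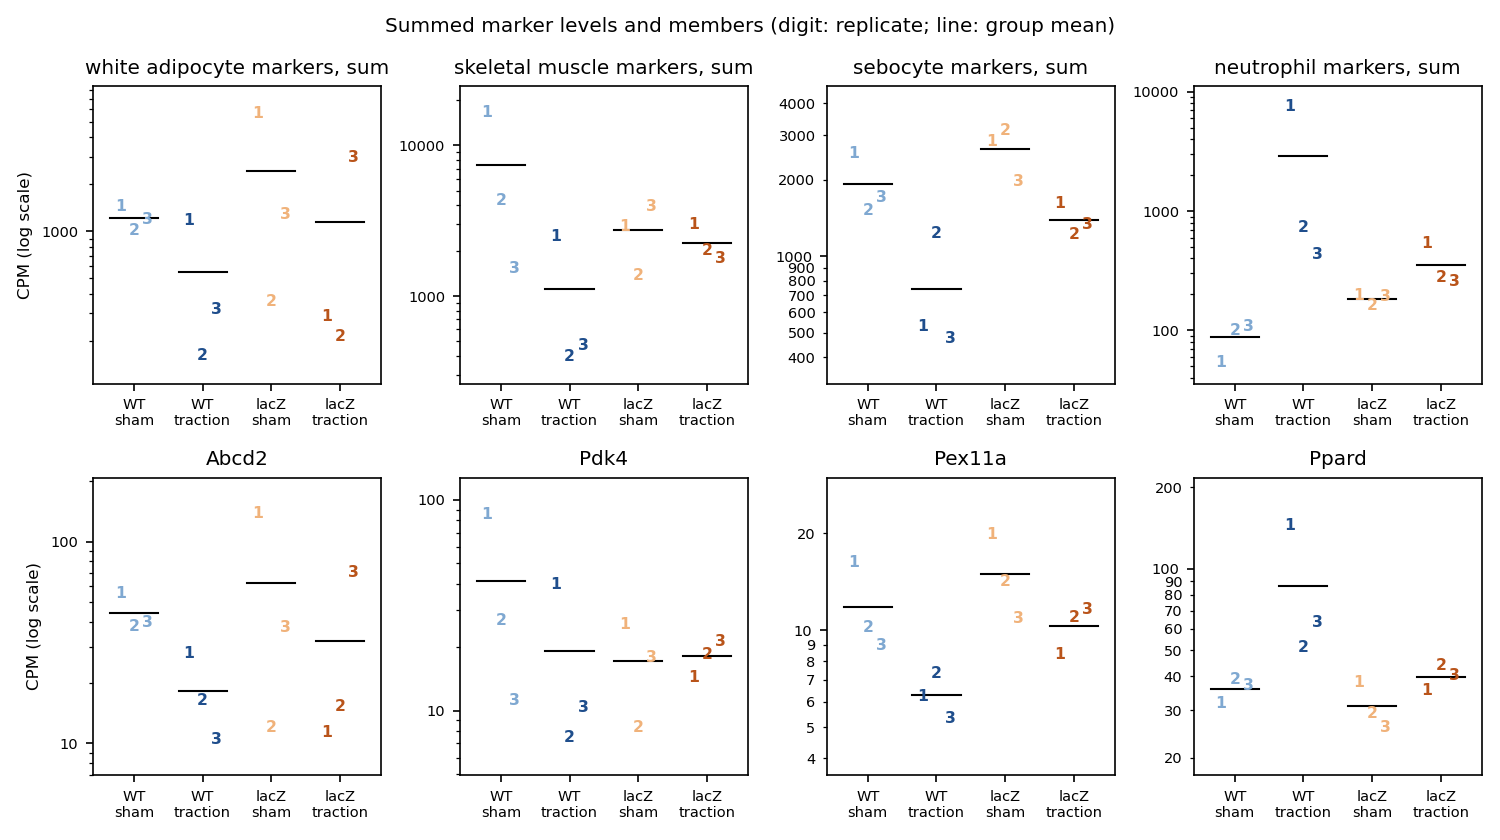
Summed CPM of 4 marker lists (top) and CPM of 4 members (bottom), on log scales (vertical axes), in each library of the 4 groups (horizontal axes), where digits are replicate numbers and lines are group means. Abcd2 and the adipocyte markers are both highest in sham replicate 1 of Tem1lacZ/lacZ mice, Pdk4 and the muscle markers in sham replicate 1 of Tem1WT/WT mice, and Ppard and the neutrophil markers in traction replicate 1 of Tem1WT/WT mice.

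Markers of several skin cell types moved with traction in Tem1WT/WT mice, and their part in the module was not tested. Sebocyte markers were at 1510.4 to 2546 CPM with sham and 472 to 1226 CPM with traction, and 4 of 7 fell, with log2 fold changes from −1.76 for Awat2, a wax synthase, to −1.39 for Krt79. Markers of the hair shaft and root sheath were at 15493 to 28834 CPM and 4224 to 7691 CPM, and 2 of 8 fell, Tchh and Hoxc13. At an unadjusted p under 0.05, 7 of 7 sebocyte and 8 of 8 hair markers were lower. White adipocyte markers were at 1013 to 1441 CPM and 160.2 to 1169 CPM, with 0 of 8 past the test in edgeR, 0 of 8 at an unadjusted p under 0.05 and all 8 estimates below 0. Skeletal muscle markers were at 1528 to 16532 CPM and 394 to 2499.9 CPM, with 0 of 11 past the test and 11 of 11 lower at an unadjusted p under 0.05. Sebocyte and hair markers were thus lower in every traction library, while those of adipocytes and muscle overlapped. Other cell types were higher with traction. Endothelial markers were at 272 to 420.1 CPM and 801 to 892 CPM, and 6 of 7 rose. Neutrophil markers were at 53.6 to 108 CPM and 430.3 to 7479 CPM, and 5 of the 6 tested rose, and of 8 fibroblast markers, at 26586 to 42176 CPM and 44368 to 111543 CPM, Pdgfra rose. Macrophage and keratinocyte markers did not pass. Of 8 macrophage markers, at 2597 to 4355 CPM and 4108 to 4840.4 CPM, and of 7 keratinocyte markers, at 10328 to 16125 CPM and 13626 to 20209 CPM, 0 passed in edgeR. Of these, 1 macrophage marker was higher and 3 keratinocyte markers were lower at an unadjusted p under 0.05.

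In Tem1lacZ/lacZ mice the sebocyte markers were at 1974 to 3123 CPM with sham and 1215 to 1606 CPM with traction, again without overlap. Hair markers were at 4001 to 21706 CPM and 8036 to 13928 CPM, white adipocyte markers at 355 to 5645 CPM and 214 to 2962 CPM, and skeletal muscle markers at 1367 to 3939 CPM and 1777 to 2969.6 CPM. These 3 overlapped between the groups. Endothelial markers were at 246 to 389 CPM and 377 to 615 CPM, neutrophil markers at 163 to 197 CPM and 257 to 535 CPM, and fibroblast markers at 18115 to 30942 CPM and 22916 to 50212 CPM. Of these, the neutrophil markers did not overlap. In edgeR 0 markers of these lists passed. The unadjusted p was under 0.05 for 4 of 7 sebocyte markers, which were lower, and 5 of 7 endothelial, 3 of 8 fibroblast and 1 of 6 neutrophil markers, which were higher. Brown adipocyte markers, of which the member Ppargc1a is 1 of 4, were at 49.9 to 76.7 CPM with sham and 18.4 to 41.9 CPM with traction in Tem1WT/WT mice and at 60.1 to 93.7 CPM and 42.2 to 64.6 CPM in Tem1lacZ/lacZ mice, and Ppargc1a was the only one that passed. The defining brown adipocyte marker Ucp1 had 0 to 28 counts per library, and Ly6g was the neutrophil marker at 0 in every sham library of Tem1WT/WT mice.

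Genes near the module in metabolism were counted in the same way for traction in Tem1WT/WT mice. Of all genes tested, 3.54% passed as lower and 5.61% as higher, and 18.0% were lower and 17.7% higher without overlap. At an unadjusted p under 0.05, 14.7% were lower and 16.7% higher. Of 27 other fatty acid oxidation genes, Acat1, the mitochondrial acetoacetyl-CoA thiolase, fell (log2 fold change −0.60, standard error 0.14, adjusted p = 0.0360 in edgeR), from 173 to 114 CPM in the group means. Their median was −0.33, with 13 lower (48.1%) and 1 higher (3.70%) without overlap. Of 16 genes of fatty acid release and uptake, Dbi, the acyl-CoA binding protein, fell (log2 fold change −0.77, standard error 0.22, adjusted p = 0.0499), and their median was −0.51, with 5 lower and 0 higher without overlap. Of 19 other PPAR and coactivator genes and targets 0 passed, with a median of −0.03, and 3 were higher and 1 lower at an unadjusted p under 0.05. Of 16 peroxisome assembly genes and 16 citric acid cycle genes 0 passed, with medians of −0.17 and −0.18, and 3 lower and 1 higher, and 4 lower and 0 higher, at an unadjusted p under 0.05. Without overlap, 7 peroxisome assembly genes (43.75%) were lower and 1 (6.25%) was higher. Of the citric acid cycle genes 5 (31.25%) were lower and 0 higher without overlap, and of the PPAR and coactivator list 2 (10.5%) were lower and 3 (15.8%) higher. In the other comparisons 0 genes of these 5 lists passed in edgeR.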

How the data were processed

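Scars of 12 mice were profiled by RNA-seq. Per the labels and methods, the authors trimmed reads with fastp 0.20.0, aligned them to GRCm38 with HISAT2 2.1.0 and counted them with featureCounts 2.0.0. Which annotation and strand option were used, and what was done with reads shared between genes, is not given in the sources used here. The deposited values are raw counts per gene and library, 41536788 to 64644293 in all. Genes were filtered with filterByExpr, normalized by TMM and fitted with the robust quasi-likelihood test of edgeR 4.0.16 (R 4.3.3) over all 4 groups, without covariates, after the scripts had been tested on simulated data. P-values were two-sided, Benjamini-Hochberg adjusted over 18853 genes, and measure the spread between mice as labelled. The biological coefficient of variation was 34.2%. Alternatives used DESeq2 1.42.0, limma 3.58.1 (voom), other scalings and filters, and left out each library. Same-numbered libraries come from different mice, and their deviations correlated from −0.324 to 0.250, so they were not paired. The members, the other lists and the tests were chosen with earlier results of these data known. Levels in every library are given for members past the test, for those the study names or that set the rate or the fuel choice of the pathway, and for the 3 smallest p of each other comparison. Sequences, positions and motif counts come from RefSeq (GRCm38.p6), and transcript lengths from GENCODE vM21.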

Additional observations from a re-analysis of the deposited data

How the results depend on the processing

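Of 24 gene results under 501 alternatives, 499 kept their direction. The exceptions were Cpt1a for traction in Tem1WT/WT mice, at −0.033 with upper quartile normalization, and Pdk4 in the same comparison, at 0.00023 without sham replicate 1 and down to −2.22 when other libraries were left out. The alternatives share most libraries, and results of the other comparisons were picked by smallest p, so a kept direction is weak evidence. For traction in Tem1WT/WT mice, calls were kept less often. Of 21 alternatives, Ppargc1a passed in 14, Acot1 in 13, Acadm in 8, and Abcd3 and Ppard in 7 each. The number of members past the test for traction in Tem1WT/WT mice, 5, was 8 with upper quartile normalization, 7 with at least 10 counts in every library, 2 with all genes of at least 1 count, 10 with DESeq2, 17 at an adjusted p under 0.1, and 0 with limma-voom or with only the libraries compared, and the cause was not tested. With a replicate block it was 5, all lower, of which Ucp3 (−2.97) and Hadhb (−0.60) were gained while Abcd3 (−0.73) and Ppard (1.17) were lost. Leaving out single libraries gave 0 to 8 members. The 8 came without traction replicate 1 of Tem1lacZ/lacZ mice, where 10.9% of all genes passed. The share of all genes ran from 0% to 14.7%, the highest being without traction replicate 2 of Tem1WT/WT mice. For the genotypes with traction, 0 became 2 with DESeq2 (11.8% of all genes) and at an adjusted p under 0.1. It also became 2, Abcd3 and Ppard (5% of members), without traction replicate 2 of Tem1WT/WT mice, where 7.32% of all genes passed. It stayed at 0 when any other library was left out. Over all genes, 1725 (9.15%) passed for traction in Tem1WT/WT mice, 3926 (18.5%) with DESeq2 and 748 (3.97%) with limma-voom. The share was 8.87% with upper quartile normalization and 7.78% with a replicate block. It was 10.5% with at least 10 counts in every library and 3.54% with all genes of at least 1 count. With only the libraries compared, 0 genes passed. The share at an adjusted p under 0.1 was not counted over all genes. The median over the members in this comparison lay between −0.63 and −0.39 in all settings. Upper quartile normalization moved the median of all genes by −0.11 there and by 0.13 for the genotypes with traction. With 3 mice a group, differences of the size seen in most members could not be told from the spread.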
